A study of Homo sapiens with 6 samples.

Results

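The 34 genes described here are those of cholesterol synthesis, fatty acid synthesis and their sterol-dependent control. They were chosen by gene name from the pathway, and all 34 of 34 were found among the 17499 genes of the table. By role they are 18 enzymes of sterol synthesis, 1 sterol carrier, 5 genes of the sterol regulatory element-binding proteins (SREBPs) and their partners, here called SREBP regulators, 8 enzymes of fatty acid synthesis and 2 sterol exporters. RNA was sequenced from HL60, an established human promyelocytic leukemia line, in 6 libraries, of which KO1, KO2 and KO3 came from akirin2 KO cells and WT1, WT2 and WT3 from WT cells. Both groups were grown in RPMI medium with fetal bovine serum and both had received SpCas9, the Cas9 nuclease, KO cells with a guide RNA against akirin2 and WT cells with the nuclease alone. KO cells were 1 edited pool that was not expanded from single clones, and its editing was incomplete by the study's methods. The methods call the replicates biological, each from its own portion of cells. Neither the labels nor the methods say whether the replicates were separate cultures. The p-values then measure only the spread between these libraries, which may be technical.

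Cholesterol is built from acetyl-CoA through mevalonate, farnesyl diphosphate, squalene and lanosterol, while fatty acids are built from acetyl-CoA by carboxylation, chain extension and desaturation. The membrane-bound SREBPs, encoded by SREBF1 and SREBF2, are carried by SCAP from the endoplasmic reticulum to the Golgi when sterols are low, are cut there, and turn on the genes of both pathways in the nucleus. INSIG proteins hold SCAP back when sterols are high, and the oxysterol-sensing liver X receptors (LXRs) then raise the exporters ABCA1 and ABCG1.

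Promoters of the members, taken from RefSeq (GRCh38.p14) as 250 bases before to 50 after each annotated start, were found for 29 of the 34 genes. They were searched on both strands for the sterol regulatory element TCACNCCAC and its shorter form CACNCCAC, which lies within it, for CCAAT, the letters bound by NF-Y, and for GGGCGG, the letters bound by Sp1. The long element was found in 1 of the 29 genes, SREBF2, against 1.39% of 27305 genes with such a window, and the short one in 7 (ABCA1, ACACA, IDI1, INSIG1, SC5D, SCD and SREBF2), or 24.1%, against 7.05%. CCAAT was found in 21 of 29 genes (72.4%, against 39.7% of all genes), among them 13 of the 15 sterol synthesis genes with a window, and GGGCGG in 27 of 29 (93.1%, against 48.3%). The windows of SREBF2, which holds the long element and fell in KO, and of FADS1 and FADS2, chosen after their values were seen because they fell most, are shown here with the matches in capitals (CCAAT reads ATTGG and GGGCGG reads CCGCCC on the other strand).
SREBF2 promoter, chr22:41832855-41833154, plus strand: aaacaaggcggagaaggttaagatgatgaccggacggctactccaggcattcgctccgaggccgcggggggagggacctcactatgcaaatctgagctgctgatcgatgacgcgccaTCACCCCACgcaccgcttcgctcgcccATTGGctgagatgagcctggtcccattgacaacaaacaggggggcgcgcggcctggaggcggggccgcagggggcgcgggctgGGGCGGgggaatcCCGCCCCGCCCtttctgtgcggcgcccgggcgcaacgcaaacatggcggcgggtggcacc
FADS1 promoter, chr11:61816954-61817253, minus strand: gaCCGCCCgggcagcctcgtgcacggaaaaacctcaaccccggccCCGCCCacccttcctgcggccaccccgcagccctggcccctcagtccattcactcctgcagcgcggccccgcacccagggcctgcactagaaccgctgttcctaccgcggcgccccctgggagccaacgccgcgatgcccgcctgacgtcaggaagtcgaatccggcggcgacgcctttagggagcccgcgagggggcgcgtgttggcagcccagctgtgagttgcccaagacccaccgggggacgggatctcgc
FADS2 promoter, chr11:61816154-61816453, plus strand: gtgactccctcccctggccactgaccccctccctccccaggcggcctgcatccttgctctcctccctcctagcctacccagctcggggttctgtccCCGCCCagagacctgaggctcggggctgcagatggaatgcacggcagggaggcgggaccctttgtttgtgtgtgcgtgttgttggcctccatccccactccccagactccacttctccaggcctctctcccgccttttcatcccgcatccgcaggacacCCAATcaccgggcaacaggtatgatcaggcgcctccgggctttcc
In the SREBF2 window the element lay 133 to 125 bases before the start, followed by a CCAAT match on the other strand at 106 to 102 bases and by 3 GGGCGG matches within 23 bases of the start. The FADS1 window held 2 GGGCGG matches and none of the other motifs. FADS2 has 2 windows with different starts, of which the printed one held 1 CCAAT and 1 GGGCGG match and the other held none. A match of letters is a description and not a site of binding, and no binding was measured here.

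The values are normalized counts, which are the reads of a gene scaled by the size factor of its library. The 34 genes were measured at a depth of 36096459 to 47607520 reads in KO and 41419318 to 52244122 in WT. AKIRIN2, the targeted gene, had normalized counts of 1613, 1731 and 1651 in KO1, KO2 and KO3 and of 2378, 2450.4 and 2420.2 in WT1, WT2 and WT3, so that the groups did not overlap (log2 fold change KO/WT −0.54 ± 0.05 SE, adjusted p = 1.32e-08, limma). The 5 azurophil granule genes that mark promyelocytes summed to 1010982 to 1046547 normalized counts in KO and 341130 to 360907 in WT, all 5 being higher in KO and none at 0. Of 8 lymphocyte markers, 4 were in the table and summed to 1478 to 1587 in KO and 3203 to 3798 in WT. Of 12 fibroblast and epithelial markers, 7 were in the table, with sums of 481 to 997 in KO and 408 to 5806 in WT, where the highest value of each group came from KO3 and WT1. The part of these marker genes in the results below was not tested.

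Of the 34 genes, 5 were higher in KO and 16 were lower at an adjusted p under 0.05 (limma on the log2 of normalized count + 1, Benjamini-Hochberg over 17425 genes), and 13 did not pass. Over all genes tested 30.3% were called higher and 30.3% lower, so that the share of lower genes among the 34 was 47.1% and that of higher genes 14.7%. A call in either direction was made for 60.6% of all genes and for 21 of the 34. The share of all genes whose KO and WT libraries did not overlap was not counted. Lack of overlap is no call by itself, since ACAT2, SQLE, ACACA and ELOVL6 did not overlap and did not pass. The median log2 fold change was −0.13 over the 34 genes and −0.01 over all genes tested. Without WT1 and KO3, a comparison added after the data were seen, 3 of the 34 were higher and 17 lower, against 27.0% and 26.4% of all genes. With the libraries scaled to equal totals 10 were higher and 15 lower, against 33.9% and 26.6% of all genes, of which 6 and 6 were sterol synthesis enzymes, 3 and 3 fatty acid synthesis enzymes and 1 and 3 SREBP regulators. Past a log2 fold change of −2 lay 3 of the genes, FADS1, FADS2 and ABCG1, and 2.14% of all genes.

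**Figure D1:**
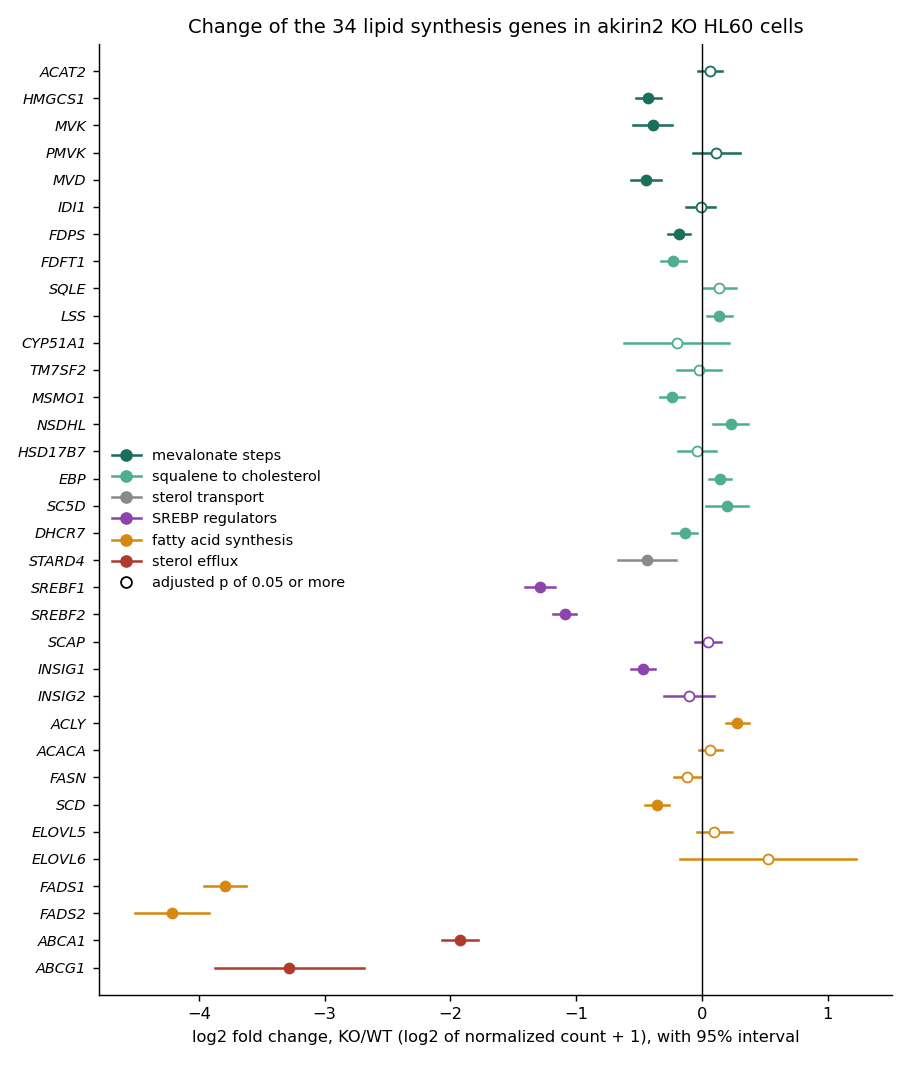
Log2 fold change, KO/WT, of the 34 genes with its 95% interval on the horizontal axis, one gene per line and coloured by role, with open points for an adjusted p of 0.05 or more. The sterol enzymes lie between −0.45 and 0.23, while FADS1, FADS2, ABCA1 and ABCG1 lie at −3.79, −4.21, −1.92 and −3.28.

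The mevalonate steps were lower or did not pass the test, with no gene called higher. Of all genes tested, 30.3% were called lower and 30.3% higher. HMGCS1, which joins acetoacetyl-CoA and acetyl-CoA to HMG-CoA, had 1417, 1438 and 1425 normalized counts in KO1, KO2 and KO3 against 1921, 1899.6 and 1936 in WT1, WT2 and WT3. Every KO library was below every WT library, and the gene fell to a ratio of 0.744 (log2 fold change −0.43 ± 0.05 SE, adjusted p = 2.95e-07). MVK, the kinase of mevalonate, had 644, 628 and 636 in KO and 779, 949.8 and 788 in WT. The WT libraries of MVK were spread, with WT2 the highest, but none came down to the KO values (log2 fold change −0.39 ± 0.07 SE, adjusted p = 1.53e-04). For MVD, which decarboxylates mevalonate diphosphate into isopentenyl diphosphate, the values were 1372, 1334 and 1486 in KO and 1835, 2004 and 1868 in WT, with KO3 the highest of the KO libraries and still below WT1 (log2 fold change −0.45 ± 0.06 SE, adjusted p = 1.16e-06). FDPS, the synthase of farnesyl diphosphate, had 7612, 7500.4 and 7316 in KO and 8241, 8406 and 8832 in WT. The groups of FDPS were apart by less than those of the 3 genes before it (log2 fold change −0.18 ± 0.04 SE, adjusted p = 0.00102). The other 3 genes of this stretch did not pass the test. They were ACAT2, the thiolase that makes acetoacetyl-CoA (0.06, 95% interval −0.03 to 0.16), PMVK, the kinase of phosphomevalonate (0.11, 95% interval −0.08 to 0.30), and IDI1, the isomerase of isopentenyl diphosphate (−0.01, 95% interval −0.12 to 0.10). IDI1 had means of 1820.4 ± 67.9 (KO) and 1835 ± 103 (WT; SD, n = 3 each). Other genes on the opposite strand share 14.95% of the exon bases of HMGCS1 (AC114947.2), 18.6% of those of FDPS (RUSC1-AS1), 14.8% of those of IDI1 (IDI2-AS1), from 9.23% to 33.9% of those of ACAT2 (TCP1 with the least, and 2 more) and 4.72% of those of MVK (MMAB). FDPS and HSD17B7 also have near-identical pseudogene copies, so that their counts are less certain.

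From squalene to cholesterol the calls were mixed, 4 higher and 3 lower of 11, with log2 fold changes of the called genes from −0.24 to 0.23. These are 36.4% higher and 27.3% lower, near the 30.3% and 30.3% of all genes tested. FDFT1, the squalene synthase at the head of the sterol branch, had 5849, 5877 and 5617 normalized counts in KO1, KO2 and KO3 and 7098, 6921 and 6324 in WT1, WT2 and WT3. All KO libraries of FDFT1 were lower than WT3, the lowest WT library (log2 fold change −0.23 ± 0.05 SE, adjusted p = 3.57e-04). MSMO1, the methylsterol monooxygenase, had 2619, 2671 and 2607 in KO and 3172, 3174 and 2981 in WT. MSMO1 fell to a ratio of 0.847 and no library crossed between the groups (log2 fold change −0.24 ± 0.05 SE, adjusted p = 1.63e-04). DHCR7, the reductase of a last step to cholesterol, had 2515, 2609 and 2631 in KO and 2782, 2972 and 2769.8 in WT (log2 fold change −0.14 ± 0.05 SE, adjusted p = 0.0187). The highest KO library of DHCR7 and the lowest WT library lay close, at 2631 and 2769.8, and the call was lost without KO1 (adjusted p = 0.096) or without WT2 (adjusted p = 0.076), and with equal library totals (log2 fold change −0.08, adjusted p = 0.131).

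The 4 genes called higher were LSS, NSDHL, EBP and SC5D. LSS, the cyclase that forms lanosterol, had 2503, 2410.4 and 2409.8 in KO and 2173, 2204 and 2286 in WT (log2 fold change 0.14 ± 0.05 SE, adjusted p = 0.0174). The groups of LSS did not overlap, but the call was lost without KO1 (adjusted p = 0.09) or without WT1 (adjusted p = 0.052). NSDHL, a dehydrogenase that removes methyl groups from the sterol ring, had 784, 817 and 784 in KO and 691, 715 and 629.9 in WT. This was the largest rise among the sterol enzymes, to a ratio of 1.17 (log2 fold change 0.23 ± 0.07 SE, adjusted p = 0.00582). EBP, the sterol isomerase, had 8466, 8571 and 8547 in KO and 7637, 8064 and 7455 in WT, with all KO libraries above WT2, the highest WT library (log2 fold change 0.14 ± 0.04 SE, adjusted p = 0.00651). EBP was no longer called without WT1 and KO3 (adjusted p = 0.077). SC5D, a sterol desaturase, had 515, 585 and 511 in KO and 487, 433 and 484 in WT (log2 fold change 0.20 ± 0.08 SE, adjusted p = 0.0394). KO2 held the highest value of SC5D, and without KO2 (adjusted p = 0.199) or without WT2 (adjusted p = 0.157), or with DESeq2 on all libraries (adjusted p = 0.078), the call was lost. SQLE, the squalene epoxidase, whose libraries are given after their values were seen, stood at 747, 742 and 768 in KO and 679.7, 682 and 688 in WT, with groups that did not overlap and an adjusted p of 0.061 (log2 fold change 0.14, 95% interval 0.01 to 0.27). CYP51A1, the lanosterol demethylase, gave a log2 fold change of −0.20 (95% interval −0.62 to 0.22), TM7SF2, a sterol reductase, a log2 fold change of −0.03 (95% interval −0.20 to 0.15) and HSD17B7, a sterol ketoreductase, a log2 fold change of −0.04 (95% interval −0.19 to 0.11), and none of these 3 passed. CYP51A1 had only 237 reads in KO and 284 in WT, and 79.4% of its exon bases are shared with another gene model on the same strand, AC000120.2, so that its count is uncertain.

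**Figure D2:**
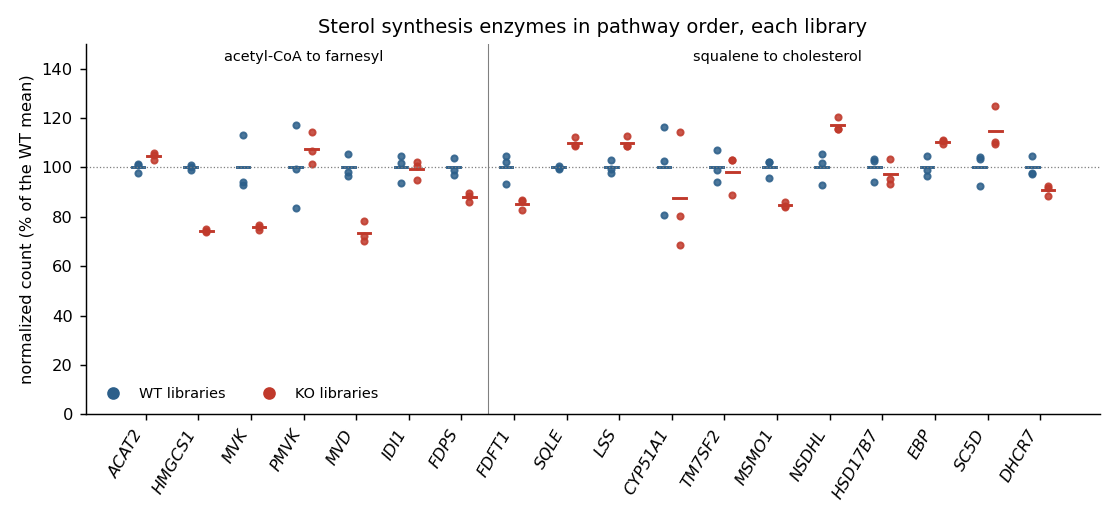
Normalized count of each of the 18 sterol synthesis enzymes, in pathway order, as a percentage of the WT mean of that gene, with 1 point per library and a line at the group mean. HMGCS1, MVK and MVD sit lowest in KO, at ratios of 0.744, 0.758 and 0.734 to the WT mean, while LSS, NSDHL, EBP and SC5D lie above it.

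Summed over the 18 enzymes of sterol synthesis, the normalized count was 41259 ± 176 (KO) and 43805 ± 869 (WT; SD, n = 3 each), a ratio of 0.942. The KO sums ran from 41110.5 to 41453 and the WT sums from 42960.4 to 44697, so the groups did not overlap. The normalized totals of whole libraries also differed, from 43340711 to 43818248 in KO and from 43705057 to 46556906 in WT. The ratio of the sums therefore depends on the scaling, and it was not computed with equal library totals. Of the 18 genes 4 were higher (22.2%), 7 lower (38.9%) and 7 not called, against 30.3% higher and 30.3% lower over all genes tested. The median log2 fold change of the 18 was −0.03, which turned to 0.03 with equal library totals. STARD4, a soluble carrier that moves cholesterol between membranes, had 216, 281 and 238 in KO1, KO2 and KO3 and 366, 333 and 294 in WT1, WT2 and WT3. KO2, the highest KO library of STARD4, came near WT3, the lowest of WT, without reaching it (log2 fold change −0.44 ± 0.11 SE, adjusted p = 0.00218).

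With the main scaling, 3 of the 5 SREBP regulators fell and none rose. Over all genes tested 30.3% were called lower and 30.3% higher. SREBF1 (chr17:17810399-17837002, GENCODE 29 on GRCh38, as for the genes that follow) encodes SREBP-1, which acts mainly on fatty acid genes, and had 3464, 3069 and 3495 normalized counts in KO1, KO2 and KO3 against 7532, 8404 and 8576 in WT1, WT2 and WT3. The highest KO library of SREBF1 was below the lowest WT library by a wide gap, with means of 3343 ± 237 for KO and 8171 ± 560.2 for WT (SD, n = 3 each) (log2 fold change −1.29 ± 0.06 SE, adjusted p = 3.01e-13). SREBF2 (chr22:41833079-41907308), whose product SREBP-2 acts mainly on cholesterol genes, had 6665, 6927 and 6891 in KO and 14417, 15384 and 13924 in WT. Its means were 6827 ± 142 for KO and 14575 ± 742 for WT (SD, n = 3 each), a ratio of 0.468 (log2 fold change −1.09 ± 0.04 SE, adjusted p = 1.16e-13). INSIG1, itself a target of the SREBPs, had 2199, 2265 and 2146 in KO and 3051, 3112 and 2986 in WT. No library of INSIG1 crossed between the groups, and the spread within each was small, at 59.7 in KO and 63.0 in WT (SD, n = 3) (log2 fold change −0.47 ± 0.05 SE, adjusted p = 4.10e-08). SCAP, the escort of the SREBPs, did not pass, with a log2 fold change of 0.05 (95% interval −0.06 to 0.15), nor did INSIG2, with a log2 fold change of −0.11 (95% interval −0.30 to 0.09). RAI1 overlaps SREBF1 on the opposite strand over 6.92% of the exon bases of SREBF1, and reads in that stretch cannot be told apart since the use of strand in counting is not given in the sources used here. RAI1 itself was at 681 ± 50.3 (KO) and 915 ± 81.9 (WT; SD, n = 3 each).

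Both SREBF genes hold a microRNA of the miR-33 family in an intron, on their own strand. These microRNAs, known to act on the RNA of ABCA1, are shown because both host genes fell, with their shared seed (bases 2 to 8) in capitals as RefSeq gives them.
hsa-miR-33a-5p, in SREBF2: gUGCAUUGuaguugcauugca
hsa-miR-33b-5p, in SREBF1: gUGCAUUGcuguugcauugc
Both seeds read UGCAUUG. The level of neither microRNA was measured here, and their part in the level of ABCA1 was not tested.

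Among the enzymes of fatty acid synthesis the 2 polyunsaturated fatty acid desaturases fell the most of the 8. FADS1 (chr11:61799625-61829318), which with FADS2 makes arachidonate and other long polyunsaturated fatty acids from dietary precursors, had 137, 161 and 155 normalized counts in KO1, KO2 and KO3 and 2157, 2229 and 1919.9 in WT1, WT2 and WT3. The mean of FADS1 was 13.9-fold higher in WT than in KO (log2 fold change −3.79 ± 0.08 SE, adjusted p = 6.24e-18). FADS2 (chr11:61792980-61867354), the desaturase of the first step of that route, had 37.5, 30.1 and 45.6 in KO and 684, 756 and 687 in WT. Its KO libraries held 109 reads in all and its WT libraries 2223, and the mean was 18.8-fold higher in WT (log2 fold change −4.21 ± 0.14 SE, adjusted p = 5.30e-15). FADS1 and FADS2 overlap on opposite strands over 490 exon bases, 4.79% of the exon length of FADS1 and 4.44% of that of FADS2, and reads in that stretch cannot be told apart. FEN1 shares 49 exon bases with FADS2 on the same strand, 0.444% of the exon length of FADS2. It had means of 6450 in KO and 5802 in WT.

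**Figure D3:**
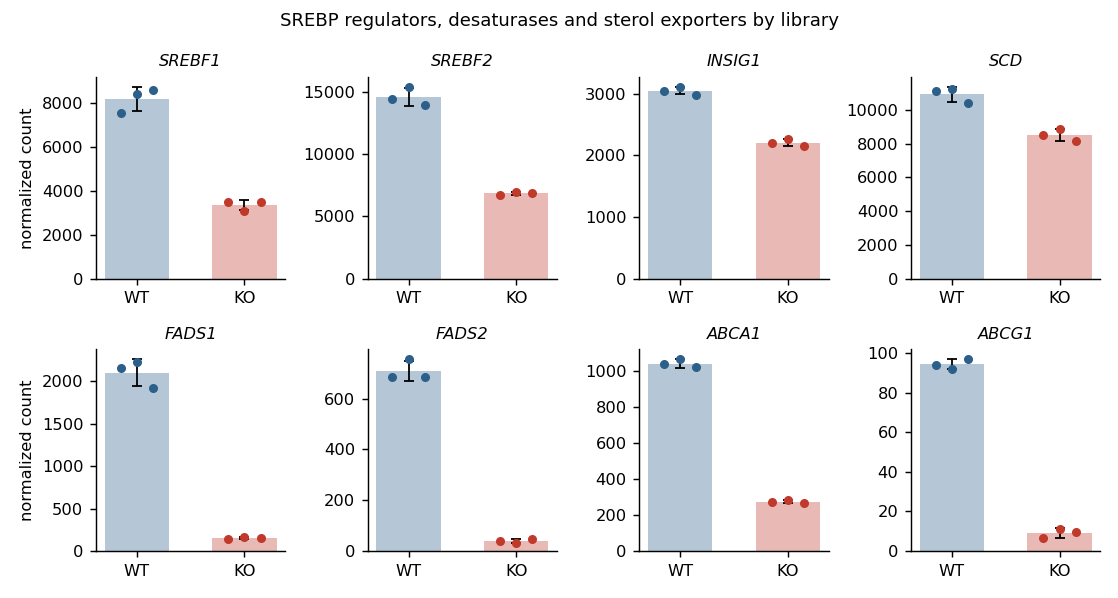
Normalized count of SREBF1, SREBF2, INSIG1, SCD, FADS1, FADS2, ABCA1 and ABCG1 on linear axes from 0, with 1 point per library, bars at the group mean and error bars of 1 SD (n = 3). In each panel the KO points lie below all WT points, with ratios of KO to WT from 0.78 in SCD to 0.0532 in FADS2. All genes shown were called lower in KO, so this separation is not a result of its own.

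SCD, the desaturase that makes oleate, had 8539.8, 8886 and 8155 in KO1, KO2 and KO3 and 11139, 11230.3 and 10412 in WT1, WT2 and WT3. SCD fell to a ratio of 0.78, with KO2, the highest KO library, still below WT3 (log2 fold change −0.36 ± 0.05 SE, adjusted p = 1.40e-06). ACLY, which splits citrate to supply cytosolic acetyl-CoA to both pathways, was the only enzyme of the 8 called higher, with 6766, 6546 and 6505 in KO and 5465, 5583 and 5260.3 in WT. Every KO library of ACLY was above every WT library (log2 fold change 0.28 ± 0.04 SE, adjusted p = 1.17e-05). FASN, the fatty acid synthase, had 14380.4, 12842 and 13919.6 in KO and 13918, 15846 and 14844 in WT. The groups of FASN overlapped, since KO1 and KO3 lay at or above WT1, and the gene did not pass with all 6 libraries (adjusted p = 0.061; log2 fold change −0.12, 95% interval −0.23 to −0.01). It was called lower without WT1 (log2 fold change −0.16) and without KO1 (−0.15). ACACA, the acetyl-CoA carboxylase, gave a log2 fold change of 0.07 (95% interval −0.03 to 0.16), and the elongase ELOVL5 gave a log2 fold change of 0.10 (95% interval −0.04 to 0.24). ELOVL6, an elongase of saturated chains, was close to the limit of counting with 66 reads in KO and 49 in WT, and the interval around its log2 fold change of 0.53 was wide (95% interval −0.18 to 1.23). Of the 8 genes 1 was higher (12.5%), 3 lower (37.5%) and 4 not called, against 30.3% higher and 30.3% lower over all genes tested. Their median log2 fold change was −0.03, which turned to 0.03 with equal library totals. The sum over the 8 genes was 33959 ± 786 (KO) and 38717 ± 1505 (WT; SD, n = 3 each), a ratio of 0.877. This ratio too was not computed with equal library totals.

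Both sterol exporters fell, where 30.3% of all genes tested were called lower. ABCA1 (chr9:104781002-104928237), which loads cholesterol onto lipid-poor apolipoprotein A-I, had 271, 282 and 269 normalized counts in KO1, KO2 and KO3 and 1039, 1068 and 1021 in WT1, WT2 and WT3. The means of ABCA1 were 274 ± 7.06 (KO) and 1043 ± 23.4 (WT; SD, n = 3 each), with no overlap, and the mean was 3.8-fold higher in WT (log2 fold change −1.92 ± 0.07 SE, adjusted p = 1.86e-14). ABCG1 (chr21:42199689-42297244), which exports cholesterol to high-density lipoprotein, had 6.4, 11.05 and 9.61 in KO and 93.9, 92.2 and 97.0 in WT. These KO values rest on 26 reads in all, against 298 in WT (log2 fold change −3.28 ± 0.28 SE, adjusted p = 5.94e-09). Both exporters are well expressed in macrophages, and some markers of monocytes and macrophages moved too, in both directions. Of 7 such markers, 5 were in the table, with summed normalized counts of 1287 to 1354 in KO and 3749 to 3926 in WT and none at 0. Most of this sum was FCGR1A, with means of 1104 in KO and 2803 in WT. CD14 (log2 fold change −3.05) and FCGR1A (−1.34) fell while CSF1R (1.44) rose. CD68 (−0.47, adjusted p = 0.293, limma) and VCAN (0.37, adjusted p = 0.427, limma) did not pass. The part of these markers in the fall of ABCA1 and ABCG1 was not tested, and in bulk RNA fewer cells of a type and less RNA per cell cannot be told apart.

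Ratios between pairs of members were compared within each library, which takes out the scaling of the library. For 5 pairs the log2 ratio in KO was set against that in WT by an exact two-sided permutation test, whose smallest p with 3 libraries against 3 is 0.1, so that no pair could pass 0.05. All 5 pairs reached that p (exact p = 0.1, adjusted p = 0.1), which any pair gives whose ratios do not overlap between the groups. Each pair holds a gene called lower in KO, so this separation is not a result of its own. The share of other gene pairs that reach this p was not counted. The log2 ratio ABCA1/ABCG1 was 4.96 ± 0.39 (KO) and 3.47 ± 0.07 (WT; SD, n = 3 each). The log2 ratio FADS1/FADS2 was 2.02 ± 0.35 (KO) and 1.57 ± 0.09 (WT; SD, n = 3 each), while FADS1/SCD was −5.82 ± 0.12 (KO) and −2.38 ± 0.05 (WT; SD, n = 3 each). For SREBF1/SREBF2 the log2 ratio was −1.03 ± 0.12 (KO) and −0.84 ± 0.12 (WT; SD, n = 3 each), and KO1 at −0.944 was just below WT1 at −0.937. INSIG1/INSIG2 stood at 2.49 ± 0.15 (KO) and 2.85 ± 0.12 (WT; SD, n = 3 each).

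Levels of different genes were compared as normalized counts per kilobase of joined exons. On this scale EBP was the highest of the 34 in both groups, with 3539.96 per kilobase in KO and 3204 in WT, and FDPS came next with 2011 and 2284. SCD followed at 1590.3 in KO and 2038 in WT. SREBF2 stood at 1929 per kilobase in WT, between SCD and FASN (1588), and at 903 in KO, below MSMO1 (910.1), FDFT1 (1111), ACLY (1266) and FASN (1465). The desaturases left the middle range, since FADS1 went from 205 per kilobase in WT, at the 63.4th percentile of all genes, to 14.7 in KO, at the 17.7th percentile. FADS2 went from 64.3 per kilobase, at the 40.7th percentile, to 3.42, at the 5.18th. ABCG1, at 15.4 per kilobase in WT and 1.47 in KO, was the lowest of the 34 in KO, and ELOVL6, at 2.12 in WT and 3.09 in KO, was the lowest in WT.

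**Figure D4:**
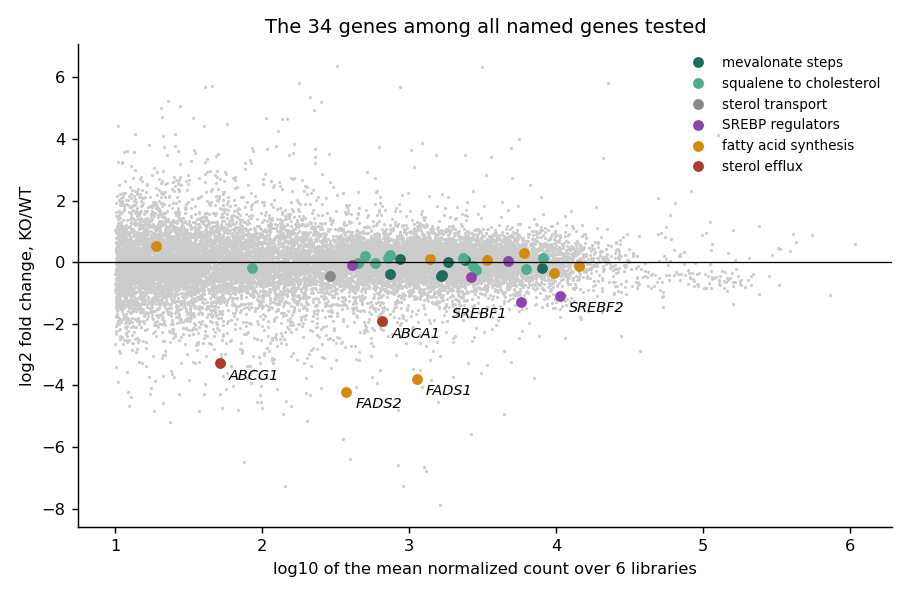
Log2 fold change, KO/WT, against the log10 of the mean normalized count over 6 libraries, for all genes tested that carry a name (grey) and the 34 genes (coloured by role). Most of the 34 lie close to 0, and SREBF2 at −1.09 and SREBF1, ABCA1, ABCG1, FADS1 and FADS2 below it stand apart from the rest.

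Other genes of these pathways were taken from lists by function. Their calls stand beside 30.3% higher and 30.3% lower over all genes tested. Of 11 genes measured for the activation and turnover of the SREBPs and their partners, 4 were higher (36.4%), 2 lower (18.2%) and 5 not called. HSP90B1, an endoplasmic reticulum chaperone, rose most and had the highest mean count over both groups (log2 fold change 0.91). The proteases that cut the SREBPs, MBTPS1 and MBTPS2, chosen after their values were seen, gave log2 fold changes of 0.05 and −0.12 that did not pass. Of 10 other SREBP target genes 6 were higher, 2 lower and 2 not called, with a median of 0.36. ME1, the malic enzyme that supplies NADPH, rose from 84.3 ± 1.99 (WT) to 269.97 ± 19.7 (KO; SD, n = 3 each) (log2 fold change 1.67). ACSS2, which makes acetyl-CoA from acetate, fell from 1637 ± 76.0 to 744 ± 9.99 (SD, n = 3 each) (−1.14). TMEM97, a sterol-binding membrane protein with the highest count of this list in the mean of both groups, did not pass (0.06).

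Of 7 LXR genes and LXR targets besides the exporters, 2 were higher (28.6%), 3 lower (42.9%) and 2 not called. The shares over all genes tested were 30.3% and 30.3%. PLTP, a phospholipid transfer protein, rose (log2 fold change 1.24), while NR1H2, which encodes LXR-beta, fell most (−0.67) and RXRA, the receptor partner with the highest mean count over both groups, fell by 0.29 on the log2 scale. NR1H3, which encodes LXR-alpha and was named after its values were seen, had 276, 349.5 and 381 in KO1, KO2 and KO3 and 145, 169 and 163 in WT1, WT2 and WT3. It rose (log2 fold change 1.06, adjusted p = 2.98e-07), in the direction opposite to ABCA1 and ABCG1. Of 13 further genes of elongation and desaturation 5 were higher (38.5%), 6 lower (46.2%) and 2 not called. ELOVL3, an elongase, rose from 4.69, 3.37 and 4.18 normalized counts in WT1, WT2 and WT3 to 101, 123 and 110.5 in KO1, KO2 and KO3 (log2 fold change 4.47), where the WT values rest on 13 reads. FADS3, next to FADS2 on chromosome 11 and related to it in sequence, fell from 45.1, 48.3 and 52.7 in WT to 4.57, 19.1 and 10.8 in KO (log2 fold change −2.18, adjusted p = 8.81e-05). MID1IP1, an activator of acetyl-CoA carboxylase and the highest here in the mean count of both groups, fell (−0.73).

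**Figure D5:**
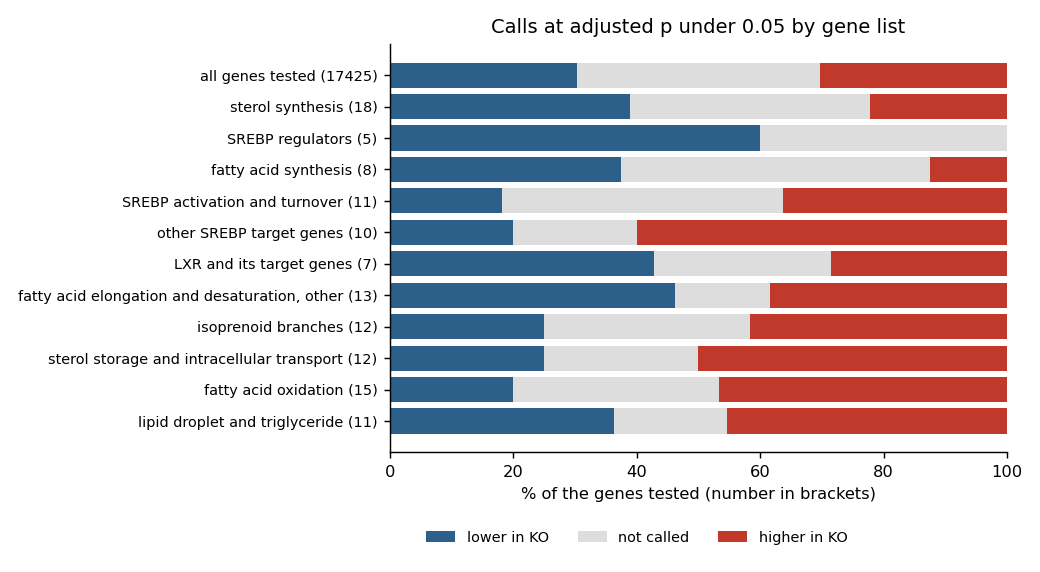
Share of genes called lower, not called and called higher in KO at an adjusted p under 0.05, for all genes tested and for 11 lists of lipid genes, with the number tested in brackets. The SREBP regulators have no gene called higher, and 6 of the 10 other SREBP target genes are higher, against 30.3% higher and 30.3% lower over all genes.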

How the data were processed

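RNA of 3 akirin2 KO and 3 WT HL60 libraries was sequenced. The authors deposited signal values, which are gene-level read counts scaled by a size factor per library, and 100% of them were whole multiples of 1 step (tolerance 0.01), from which reads were recovered. Named in the submitters' processing notes are the build GRCh38 and the tools DESeq2, featureCounts, Subread 1.5.2 and Trimmomatic 0.36. The aligner, annotation and use of strand were not given in the sources used here. Log2 fold changes and p-values of the authors' own comparison are also in the table and were left unused. Genes were matched to GENCODE release 29 (17420 of 17499, 99.55%) for exon lengths and overlaps, and promoters and microRNAs were taken from RefSeq (GRCh38.p14).

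Groups were compared on log2(normalized count + 1) with limma 3.58.1 in R 4.3.3 (eBayes with trend, two-sided, Benjamini-Hochberg adjusted over 17425 genes whose mean was 10 or more, leaving out 74), which understates changes of low genes. The study names Student's test; the fit over all genes was used instead. The steps were tested on simulated data. Members and lists were chosen with earlier results of these data known. Values per library are given for members that passed the test and for the 5 highest per kilobase, and at most 3 genes are named per further list (the largest called rise and fall and the highest mean count over both groups); any other is marked as chosen after its values were seen. As alternatives the recovered reads were tested with DESeq2 1.42.0 and edgeR 4.0.16, and limma was run with equal library totals, with TMM scaling, with a minimum mean of 50 or none, with pseudocounts of 0.5 and 5, with a variance without a trend, with a replicate block, with each library left out and, added after the data were seen, with WT1 and KO3 both left out. Python 3.11.15 with numpy 2.4.6, pandas 2.3.3, scipy 1.17.1 and matplotlib 3.10.9 was used for tables and plots.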

Additional observations from a re-analysis of the deposited data

How the results depend on the processing

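Of the 21 members called, 17 kept the same call under all 17 alternatives, among them SREBF1, SREBF2, INSIG1, FADS1, FADS2, SCD, ABCA1 and ABCG1. The other 4 were LSS, EBP, SC5D and DHCR7, each with a log2 fold change under 0.2 in size, and all 4 lost the call with a variance without a trend (adjusted p = 0.054, 0.053, 0.091 and 0.072). With equal library totals, which shifted the median of all genes by 0.06, 10 members were higher, 3 of them in fatty acid synthesis and 1 among the SREBP regulators, and the medians of sterol and fatty acid synthesis turned to 0.025 and 0.032. The fatty acid median also turned without KO2 (0.0063) or WT2 (0.00053). With a variance without a trend, 2 sterol and 2 fatty acid synthesis members were higher, and without WT1 and KO3 (added after the data were seen) 3 members were higher, 2 of them in sterol synthesis. With a minimum mean of 50, which removes ELOVL6, the median of the fatty acid synthesis members was −0.12. Directions turned for genes close to 0: IDI1 was at 0.0097 with TMM, 0.0074 with edgeR, 0.047 with equal totals, 0.0015 without WT1 and KO3 and −0.057 to 0.022 with 1 library left out. TM7SF2 was at 0.0011 with edgeR, 0.032 with equal totals, 0.0024 without WT1 and KO3 and −0.069 to 0.046 with 1 library left out. HSD17B7 was at 0.019 with equal totals, and PMVK ran from −0.0096 to 0.23 with 1 library left out. SQLE was called higher with TMM, edgeR, equal totals and a variance without a trend. The replicate numbers did not pair the samples (correlations of same-numbered libraries −0.073, 0.052 and −0.075), and a replicate block gave 5 members higher and 16 lower, as without it, and 5191 and 5203 of all genes. Depth limits ABCG1, FADS2, ELOVL6 and CYP51A1, with 26, 109, 66 and 237 reads in KO.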

Other observations

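Further lipid genes moved in both directions, as did all genes tested, with 30.3% called higher and 30.3% lower. Of 15 genes of fatty acid oxidation 7 were higher, 3 lower and 5 not called. ACAA2, the mitochondrial thiolase of the last step of each round, rose from 34.7, 18.0 and 20.1 normalized counts in WT1, WT2 and WT3 to 133, 128 and 148 in KO1, KO2 and KO3 (log2 fold change 2.50), and ECI1, an isomerase for unsaturated chains, fell most (−1.18). CPT1A, the carnitine transferase that admits fatty acids to mitochondria and the gene of highest mean count over both groups, did not pass (0.03). Of 11 genes of lipid droplets and triglycerides 5 were higher (45.5%), 4 lower (36.4%) and 2 not called. MGLL, the monoglyceride lipase, rose (1.54), while DGAT2, which forms triglyceride, fell (−1.29), as did PNPLA2, the triglyceride lipase with the highest mean count (−0.57).

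Of 12 genes of the isoprenoid branches, which draw on farnesyl diphosphate, 5 were higher (41.7%), 3 lower (25.0%) and 4 not called. The shares over all genes tested were 30.3% higher and 30.3% lower. COQ2, of ubiquinone synthesis, rose (log2 fold change 1.04), and GGPS1, the synthase of geranylgeranyl diphosphate, fell (−0.66), as did RABGGTB, a prenyltransferase subunit with the highest mean count (−0.50). Of 12 genes of sterol storage and transport 6 were higher, 3 lower and 3 not called. LIPA, the lysosomal acid lipase, rose (1.04), as did SCARB1, the lipoprotein receptor with the highest mean count over both groups (0.86), and OSBP, an oxysterol-binding protein, fell (−0.29).

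The neighbours of FADS1 and FADS2 on chromosome 11, within 100 kilobases of the stretch from FADS2 to FADS3 and chosen after their values were seen, did not all move with the pair. FADS3 (log2 fold change −2.18), RAB3IL1 (−3.26), BEST1 (−1.78) and FTH1 (−1.45) were also lower in KO. On the other side FEN1 (0.15), which overlaps the start of the FADS2 span, and TMEM258 (0.34) were higher. MYRF (−0.45, adjusted p = 0.101), and AP003733.4 beyond FTH1 (−0.33, adjusted p = 0.515), did not pass. RAB3IL1 had 1.83, 10.0 and 3.60 normalized counts in KO1, KO2 and KO3 and 55.4, 62.9 and 34.3 in WT1, WT2 and WT3. FTH1, the ferritin heavy chain, had 999, 944 and 1064 in KO against 2838, 2710.1 and 2669 in WT.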
